A study of Mus musculus with 6 samples.

Results

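The smooth muscle contractile genes are 10 genes whose products build or switch on the contractile apparatus of smooth muscle cells: Acta2, Tagln, Cnn1, Lmod1, Smtn, Myh11, Myl9, Mylk, Des and Myocd. They were taken by symbol from a deposited table of 53715 genes, and all 10 were among the 26559 genes with enough reads to be tested. Male WT C57BL/6J mice aged 14 weeks gave gastrocnemius-soleus muscle, from which pericytes, the cells that sit on the outside of capillaries, were sorted for RNA sequencing. The gate was positive for CD146 and negative for CD45, a leukocyte antigen, and CD31, an endothelial antigen. In the 3 stimulated mice, electrical stimulation drove the lower leg muscles for about 10 minutes through 40 contractions, 20 of them concentric and 20 eccentric, and tissue was taken 3 hours later. The 3 sham mice were not stimulated. The question for these genes is whether their RNA in the sorted cells differed after a bout of contractions.

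Smooth muscle contracts when myosin slides along filaments of smooth muscle actin. Calcium bound to calmodulin activates myosin light chain kinase, which phosphorylates the regulatory light chain of myosin and so turns the motor on. Many genes of this apparatus are transcribed through serum response factor, which binds CArG boxes in their promoters together with its cofactor myocardin. In the microcirculation these genes are best known from arteriolar smooth muscle, and pericytes carry them to a varying degree along the capillary bed.

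The CArG box is the sequence element that ties these genes to their shared regulator, so the promoters of Acta2 and Myl9 are shown, the members in which a match was found. A CArG box was searched as CC, 6 bases that are each A or T, and GG, which reads the same on both strands; in a CArG-like match 1 of the 6 inner bases may be G or C. The windows run from 250 bases before to 50 bases after a start of the gene in RefSeq (GRCm38.p6). To such a window 7 of the 10 members, Acta2, Cnn1, Myl9, Mylk, Lmod1, Smtn and Des, were matched. The Acta2 window lies at chr19:34255324-34255623 on the minus strand and the Myl9 window at chr2:156775214-156775513 on the plus strand. Each is written 5′ to 3′ on the gene's own strand with the matches in capitals.
Acta2: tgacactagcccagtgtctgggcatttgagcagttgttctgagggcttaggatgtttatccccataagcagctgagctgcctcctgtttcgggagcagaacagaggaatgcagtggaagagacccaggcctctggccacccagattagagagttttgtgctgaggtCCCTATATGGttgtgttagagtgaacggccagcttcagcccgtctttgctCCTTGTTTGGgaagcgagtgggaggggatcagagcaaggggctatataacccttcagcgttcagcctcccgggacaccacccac
Myl9: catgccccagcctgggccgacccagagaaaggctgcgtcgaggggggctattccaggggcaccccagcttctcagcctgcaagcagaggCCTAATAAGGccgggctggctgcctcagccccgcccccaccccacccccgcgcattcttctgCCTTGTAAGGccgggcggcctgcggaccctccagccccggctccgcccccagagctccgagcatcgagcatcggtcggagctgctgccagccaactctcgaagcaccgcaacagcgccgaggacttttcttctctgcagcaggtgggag
Acta2 held 2 CArG-like matches, CCCTATATGG with its first base 84 bases before the start and CCTTGTTTGG 34 bases before it. Myl9 held a CArG match, CCTAATAAGG, 161 bases before the start and a CArG-like match, CCTTGTAAGG, 99 bases before it. Thus 1 of 7 member windows held a CArG match and 2 of 7 held either form, each of them with 2 matches. Among 32851 promoters of the same length, 1.63% held a CArG match, 9.98% held either form and 0.822% held 2 or more. In the other 5 member windows these letters did not occur, which says nothing about elements outside the windows. The Mylk window (chr16:34784700-34784999) and the Smtn window (chr11:3539243-3539542) lie wholly inside the gene spans given below, so the outer starts of these genes were not searched. The Acta2 window reaches past the outer end of its gene span, 34255590, but its start and both matches lie inside that span.

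Depth ranged from 18204991 to 23709220 estimated reads in stimulated and from 17520338 to 21825118 in sham libraries. Mcam, which encodes CD146, had 24.3, 30.8 and 54.0 CPM (read counts relative to the library total, scaled between libraries by TMM) in stimulated libraries and 39.1, 105 and 64.0 CPM in sham libraries. All 18 pericyte markers were tested, with a summed level of 462 to 769 CPM in stimulated and 690 to 1050 CPM in sham libraries. Genes of both antigens that the gate selects against had more RNA than Mcam: Ptprc (CD45) stood at 989 to 1040 CPM in stimulated and 194 to 863 CPM in sham libraries, and Pecam1 (CD31) at 384 to 577 CPM in stimulated and 524 to 1280 CPM in sham libraries. Sham replicate 2 stood apart, with a mean level of 16 lymphocyte markers of 3.84 log2 CPM where the other 5 libraries had 6.40 to 6.99, and a mean level of 20 endothelial markers of 8.98 log2 CPM where the others had 6.93 to 8.23. Log2 fold changes of the members, and the values of the contraction lists that moved without this library, are given with and without it.

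The 10 contractile genes were all lower on average in stimulated than in sham libraries, and none passed the test. Their median log2 fold change was -0.98, where the median of all tested genes was -0.02. Negative log2 fold changes were found in 10 of 10 members, against a background of 52.0% of tested genes. The quasi-likelihood test of edgeR called 0 of the 10 at a Benjamini-Hochberg adjusted p of 0.05, with a background of 0.0%. At an unadjusted p under 0.05, 2 members were lower, Myl9 and Acta2, where 4.41% of tested genes were. DESeq2 also called 0 of the 10 (background 1.14%), and 4 members were lower at an unadjusted p under 0.05 (background 4.66%). With limma voom 0 of the 10 were called (background 0.0%), and 2 were lower at an unadjusted p under 0.05 (background 3.9%). In bulk RNA of this kind, fewer contractile cells in the sort and less of these transcripts per cell cannot be told apart.

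The order of the libraries was much the same from member to member. Within the sham group, replicate 2 was highest in 10 of the 10 genes and replicate 1 lowest in 9. Within the stimulated group, replicate 3 was highest in 8 and replicate 1 lowest in 7. The groups did not overlap in 1 member, Myl9, where 5.89% of tested genes did not overlap with stimulated libraries lower. Without sham replicate 2 the median of the members was -0.35, 7 members had a negative log2 fold change (background 49.1%) and 1 was lower at an unadjusted p under 0.05 (background 2.01%). That last count was 7 without sham replicate 1 (background 6.5%) and 6 without stimulated replicate 3 (background 4.67%), and no member was called in any of these fits.

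**Figure D1:**
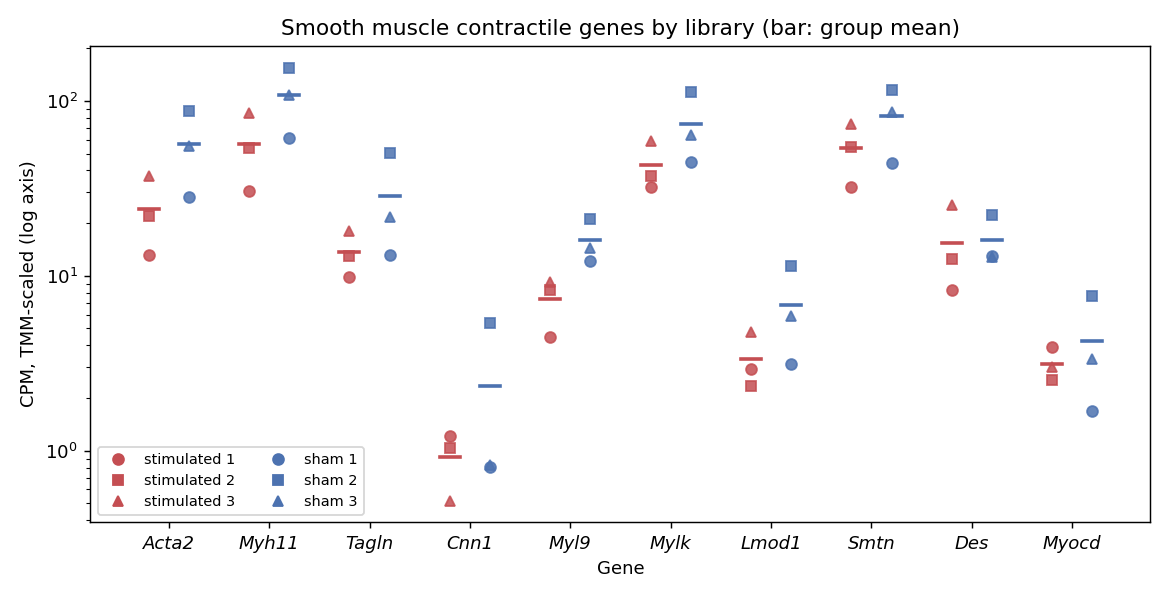
Level of each of the 10 genes in every library, in TMM-scaled CPM on a log axis; points are libraries, red for stimulated and blue for sham, and the bars are group means. The blue square of sham replicate 2 is the highest point in every gene except Des, and the groups are apart in Myl9 alone.

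Acta2 encodes smooth muscle α-actin, the thin filament protein that defines the contractile phenotype (chromosome 19, 34241090 to 34255590, minus strand, GRCm38). Its level was 13.2, 21.9 and 37.3 CPM in stimulated libraries, against 28.3, 87.3 and 54.9 CPM in sham libraries. The lowest sham library lay below the highest stimulated one, so the groups overlapped by that pair. The means were 24.2 ± 12.2 CPM in stimulated and 56.8 ± 29.5 CPM in sham libraries (SD, n = 3 each), a log2 fold change of -1.23 (SE 0.47) with an edgeR adjusted p of 0.664. It was -0.78 without sham replicate 2. Acta2 has 1 annotated transcript with reads, and summed transcript reads gave the same -1.23 (SE 0.44).

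Tagln encodes transgelin (SM22α), an actin-bundling protein (chromosome 9, 45929619 to 45936058, minus strand). It had 9.85, 13.0 and 18.0 CPM in stimulated libraries and 13.2, 50.4 and 21.8 CPM in sham libraries. Sham replicate 2 was far above all others, and the other 2 sham libraries lay within or just above the stimulated range. The log2 fold change was -1.07 (SE 0.47, edgeR adjusted p 0.709), and -0.36 without sham replicate 2.

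Lmod1, leiomodin 1, nucleates actin filaments in smooth muscle (chromosome 1, 135324807 to 135368065, plus strand). Its level was low, at 2.92, 2.34 and 4.74 CPM in stimulated libraries and 3.12, 11.4 and 5.90 CPM in sham libraries. Sham replicate 1 fell within the stimulated range. The log2 fold change was -1.02 (SE 0.50, edgeR adjusted p 0.745), and -0.43 without sham replicate 2.

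Smtn encodes smoothelin, which associates with actin filaments of contractile smooth muscle cells (chromosome 11, 3517523 to 3540612, minus strand). It had 32.3, 54.2 and 74.2 CPM in stimulated libraries and 44.3, 116 and 85.9 CPM in sham libraries, groups that overlapped broadly. The log2 fold change was -0.62 (SE 0.41, edgeR adjusted p 0.862) in the deposited table and -0.79 from summed reads. It was -0.28 without sham replicate 2.

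Cnn1 encodes calponin 1, an actin-binding protein that restrains myosin ATPase activity (chromosome 9, 22099216 to 22109630, plus strand). It had the lowest mean CPM of the members, with 1.21, 1.03 and 0.518 CPM in stimulated libraries and 0.810, 5.40 and 0.828 CPM in sham libraries. Apart from sham replicate 2, the sham libraries lay within the stimulated range. Its log2 fold change of -1.34 (SE 0.78, edgeR adjusted p 0.818) was the most negative of the 10 in the deposited table. Summed over transcripts, 19, 27 and 21 reads lay on the gene in stimulated libraries and 18, 29 and 12 in sham libraries, a log2 fold change of 0.13 (SE 0.52). Cnn1 had 0.17 in the deposited table without sham replicate 2.

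On the thick filament side, Myh11 encodes the smooth muscle myosin heavy chain, the motor itself (chromosome 16, 14194535 to 14291372, minus strand). It was among the most abundant members in reads, with 30.7, 53.9 and 84.7 CPM in stimulated libraries and 61.6, 155 and 108 CPM in sham libraries. Stimulated replicate 3 lay above sham replicate 1, and the other stimulated libraries lay below all sham libraries. The means were 56.4 ± 27.1 CPM in stimulated and 108 ± 47.0 CPM in sham libraries (SD, n = 3 each), a log2 fold change of -0.94 (SE 0.43) with an edgeR adjusted p of 0.714. It was -0.58 without sham replicate 2.

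Myl9 encodes the regulatory light chain that the kinase phosphorylates (chromosome 2, 156775420 to 156781658, plus strand). It had 4.45, 8.27 and 9.23 CPM in stimulated libraries and 12.2, 21.2 and 14.5 CPM in sham libraries. Every stimulated library lay below every sham library in the deposited table. The means were 7.32 ± 2.53 CPM in stimulated and 16.0 ± 4.69 CPM in sham libraries (SD, n = 3 each), a log2 fold change of -1.12 (SE 0.36) with an edgeR adjusted p of 0.589, the smallest of the 10. From summed reads it had 4.28, 7.10 and 10.2 CPM in stimulated libraries and 9.05, 27.3 and 16.1 CPM in sham libraries, so that stimulated replicate 3 passed sham replicate 1 and the groups overlapped; the log2 fold change was then -1.28 (SE 0.44). In the deposited table Myl9 had -0.86 without sham replicate 2.

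Mylk encodes myosin light chain kinase, the calcium-dependent switch (chromosome 16, 34745210 to 35002420, plus strand). Its level was 32.2, 37.1 and 59.2 CPM in stimulated libraries, against 45.0, 112 and 64.2 CPM in sham libraries. Stimulated replicate 3 lay above sham replicate 1 and below the other sham libraries. The log2 fold change was -0.78 (SE 0.38, edgeR adjusted p 0.736), and -0.34 without sham replicate 2.

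Des encodes desmin, the muscle intermediate filament protein, which smooth muscle, pericytes and skeletal muscle cells all make (chromosome 1, 75360329 to 75368579, plus strand). It had 8.34, 12.5 and 25.5 CPM in stimulated libraries and 13.0, 22.2 and 12.8 CPM in sham libraries. It was the one member whose highest library was a stimulated one, replicate 3. The log2 fold change was -0.05 (SE 0.43, edgeR adjusted p 0.996), and 0.28 without sham replicate 2. Stimulated replicate 3 also had the highest mean level of skeletal myofibre markers, 3.33 log2 CPM, where the other 5 libraries had 1.92 to 2.21. The same library was highest for 8 satellite cell markers, at 2.73 log2 CPM where the others had 0.95 to 2.43. It was highest too for 10 Schwann cell markers, at 3.24 log2 CPM where the others had 1.81 to 2.38. All 20 myofibre markers were tested and none was at 0 in any library. Their summed level was 168 to 309 CPM in stimulated and 128 to 301 CPM in sham libraries. The part of any of these cells in the Des values was not tested.

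Myocd encodes myocardin, the cofactor that drives transcription of the other members (chromosome 11, 65176561 to 65269989, minus strand). It had 3.89, 2.55 and 3.00 CPM in stimulated libraries and 1.69, 7.62 and 3.36 CPM in sham libraries. The sham group held both the lowest and the highest library, and the stimulated values lay between them. The log2 fold change was -0.42 (SE 0.52, edgeR adjusted p 0.970), and 0.32 without sham replicate 2.

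**Figure D2:**
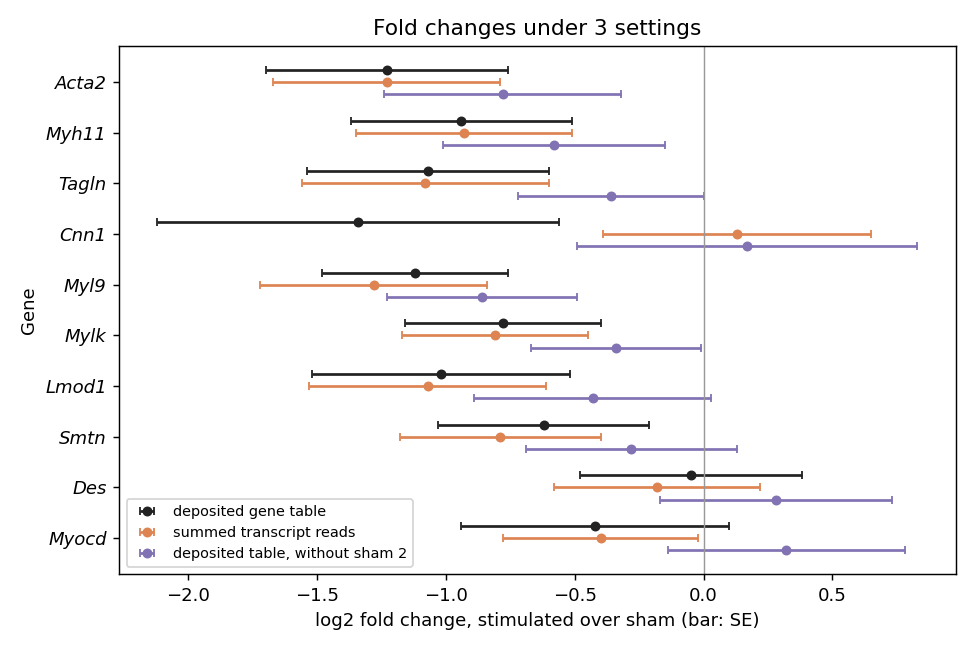
Log2 fold change of stimulated over sham for each of the 10 genes, with its SE as a bar, from the deposited gene table, from summed transcript reads, and from the deposited table without sham replicate 2. The deposited and summed values lie close together except for Cnn1, at -1.34 and 0.13, and without sham replicate 2 every value lies to the right of the deposited one.

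Summing the reads of each gene over its transcripts gave negative log2 fold changes in 9 of 10 members (background 52.4%). None was called by edgeR (background 0.00377%), and 3, Acta2, Myl9 and Lmod1, were lower at an unadjusted p under 0.05 (background 5.0%). In 0 of the 10 did the groups stay apart, where 6.02% of tested genes did with stimulated libraries lower. With sham replicate 2 also left out, the median was -0.48 and 0 members had an unadjusted p under 0.05 (background 2.35% lower).

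The members differ in how many of their reads lie on short transcripts, which matters because the deposited values weigh reads by transcript length. In Tagln a transcript of 369 bases held 7.53 to 13.3% of the reads of the gene but 48.3 to 63.7% of its TPM, the unit that divides reads by transcript length. In Myl9 the transcripts under 400 bases held 19.1 to 37.9% of reads and 56.3 to 78.0% of TPM. In Cnn1 a transcript of 370 bases was estimated at 11.1 reads in sham replicate 2, which made 38.3% of the reads and 85.4% of the TPM there, while it had 0 reads in stimulated replicates 2 and 3.

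**Figure D3:**
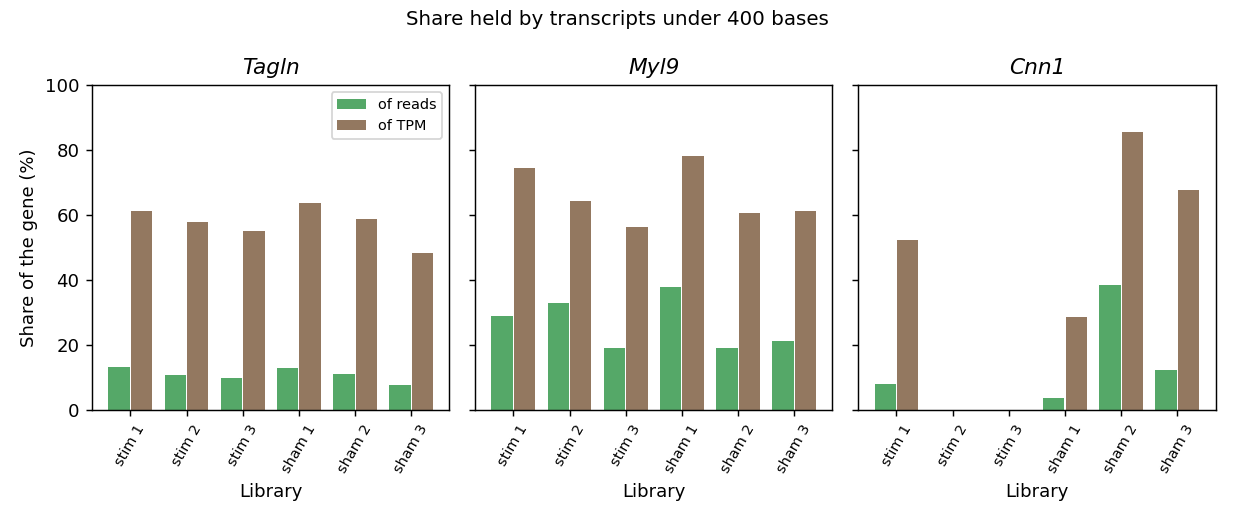
Share of the gene's reads (green) and of its TPM (brown) held by transcripts shorter than 400 bases, in percent, per library, for Tagln, Myl9 and Cnn1. The brown bars exceed the green ones wherever such a transcript has reads, and in Cnn1 the pair of sham replicate 2 is the tallest, at 38.3% of reads and 85.4% of TPM.

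Transcript choice within the genes was tested as well, since Myh11, Mylk and Smtn make products that differ between smooth muscle types. Of the members, 6 had at least 2 transcripts with enough reads: Myh11, Smtn, Myocd, Mylk, Tagln and Myl9. The diffSplice test of limma gave all 6 an adjusted p of 1.0, and 0 of them had an unadjusted p under 0.05, where 3.96% of the 11525 genes tested did and 0.00868% passed adjustment. The smallest unadjusted p among the members, 0.0574, belonged to Myocd, and compared the 2 of its transcripts that passed the filter on reads. The transcript of 5114 bases was estimated at 0, 0 and 28.9 reads in stimulated libraries and 53.0, 61.3 and 18.6 reads in sham libraries, and the transcript of 3517 bases at 11.3, 27.7 and 13.5 reads in stimulated libraries and 12.6, 15.6 and 13.4 reads in sham libraries. The first was at 0 in stimulated replicates 1 and 2, and the second had reads in every library. A coding transcript of 4935 bases, which had too few reads to enter the test, was estimated at 40.9, 21.0 and 0 reads in stimulated libraries and 4.2, 0 and 0 reads in sham libraries. Stimulated replicates 1 and 2 thus had reads on this form where stimulated replicate 3 and most sham reads were on the form of 5114 bases. The assignment between those forms rests on little sequence, because 0.815% of the 31-base words of the shorter and 0.944% of those of the longer are found in no other transcript of the gene.

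Levels can be set against each other per length, as TMM-scaled CPM per kilobase of effective length on the main transcript of each gene. On that scale Acta2 averaged 12.0 in stimulated and 28.7 in sham libraries, and was the highest member in both. Tagln followed at 7.73 ± 3.54 in stimulated and 17.4 ± 11.2 in sham libraries, then Myh11 at 6.39 ± 3.18 in stimulated and 13.3 ± 5.84 in sham libraries (SD, n = 3 each), neighbours that differed by less than their spread. Myl9, Smtn and Mylk stood at 10.2, 10.1 and 6.93 in sham libraries, and Des at 3.63. Lmod1 at 1.13, Myocd at 0.303 and Cnn1 at 0.142 were the lowest in sham libraries. When all transcripts of a gene were included, Tagln (20.8 in stimulated and 44.0 in sham libraries) and Myl9 (17.3 in stimulated and 37.9 in sham libraries) stood above Acta2, and in stimulated libraries so did Smtn, at 16.0. Lmod1, Myocd and Cnn1 were still the lowest in sham libraries, but in the reverse order, at 1.13, 1.29 and 2.53.

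The profile of the members over the 6 libraries was close to that of the pericyte markers, and also to that of the endothelial markers given below. The mean log2 CPM of the 10 members was 3.13, 3.45 and 3.90 in stimulated libraries and 3.52, 5.09 and 4.13 in sham libraries. That of the 18 pericyte markers was 2.74, 3.11 and 3.76 in stimulated libraries and 3.63, 4.61 and 3.80 in sham libraries. The members minus the pericyte markers gave 0.39, 0.34 and 0.14 in stimulated libraries and -0.12, 0.48 and 0.33 in sham libraries. The groups overlapped in this difference, whose means were 0.29 ± 0.13 in stimulated and 0.23 ± 0.31 in sham libraries (SD, n = 3 each).

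Endothelial markers were also lowest in stimulated replicate 1 and highest in sham replicate 2, but unlike the members their mean levels did not overlap between the groups. All 20 were tested and all had a negative log2 fold change (background 52.0%), with a median of -1.11 (-0.68 without sham replicate 2). Their summed level was 4140 to 6700 CPM in stimulated and 6740 to 17000 CPM in sham libraries, and none was at 0 in any library. The members minus the endothelial markers, in mean log2 CPM, gave -3.80, -3.71 and -3.65 in stimulated libraries and -4.09, -3.89 and -4.10 in sham libraries. The SD of this difference was 0.08 in stimulated and 0.12 in sham libraries. For the members minus the pericyte markers it was larger, 0.13 in stimulated and 0.31 in sham libraries. The pericyte list holds genes with few reads, such as Higd1b (0.244 to 1.58 CPM) and Ndufa4l2 (0.135 to 8.05 CPM). No endothelial marker was below 21.5 CPM in any library, and the part of this in the SDs was not tested. Relative to endothelial markers the members were therefore higher in each stimulated library than in each sham library. Lymphocyte markers ran the other way, with a mean of 6.82, 6.99 and 6.73 log2 CPM in stimulated libraries and 6.40, 3.84 and 6.41 log2 CPM in sham libraries, and a summed level of 2340 to 3020 CPM in stimulated and 353 to 3220 CPM in sham libraries. All 16 were tested and had a positive log2 fold change, where 52.0% of all tested genes had a negative one. None was at 0 in any library. Of 12 neutrophil markers tested, 12 had a positive log2 fold change, beside the same background of 52.0% negative. The summed level of the list of 13 was 215 to 296 CPM in stimulated and 104 to 113 CPM in sham libraries. Ly6g was at 0 in a library. The part of these other cells' RNA in the members' values was not tested.

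**Figure D4:**
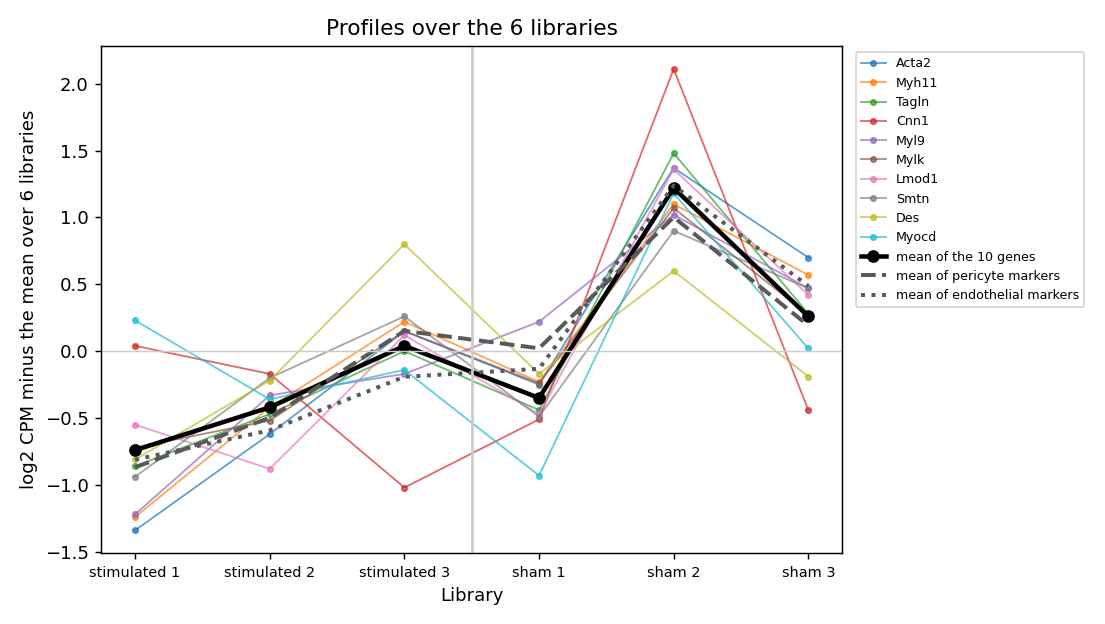
Log2 CPM of each of the 10 genes in each library minus its mean over the 6 libraries, with the mean of the 10 genes (thick black) and of the pericyte (dashed) and endothelial (dotted) markers. The black line peaks at sham replicate 2, at 1.22, and is lowest at stimulated replicate 1, at -0.74, and both marker lines have the same highest and lowest library.

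Mylk and Tagln lay closest to the mean profile of the members, with a root mean square difference over the 6 libraries of 0.0981 and 0.126 in centred log2 CPM. Des, Myocd and Cnn1 lay farthest from it, at 0.456, 0.478 and 0.718. Among 13676 genes with a mean of at least 1 log2 CPM, the median difference was 0.676. The 10 genes outside the members with the smallest difference, 0.0604 to 0.0936, included Zfyve21, Soga1, Cgnl1, Arhgef10, Slfn5, Zdhhc1, Ctnna1, Syde1 and Bcar1. Among them, Ctnna1 encodes α-catenin of adherens junctions. These 10 genes were on none of the marker or contraction lists.

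Other proteins of the contractile apparatus included 23 tested genes, of which 5 had a positive and 18 a negative log2 fold change (background 52.0%), with a median of -0.45. None was called by edgeR, and 5 were lower at an unadjusted p under 0.05 (background 4.41%). Without sham replicate 2 the median was -0.04, 14 were negative (background 49.1%) and 2, Synm and Myh10, were lower at an unadjusted p under 0.05 (background 2.01%). Of the 5 that were lower with all libraries, Cald1 encodes the actin-binding protein caldesmon. It had 44.9, 90.2 and 71.2 CPM in stimulated libraries and 94.6, 221 and 130 CPM in sham libraries. Its log2 fold change was -1.11 (SE 0.38), and -0.71 without sham replicate 2. Synm, an intermediate filament protein that pairs with desmin, had -1.35 (SE 0.43), and -0.81 without that library. Tgfb1i1, the focal adhesion protein Hic-5, had -1.17 (SE 0.40), and -0.76 without it. Myh10, a non-muscle myosin heavy chain, had -0.76 (SE 0.23), and -0.64 without it. Each stimulated library lay below each sham library for Cald1, but not for Tgfb1i1, whose highest stimulated library had 18.0 CPM and lowest sham library 16.2 CPM.

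The enzymes that set light chain phosphorylation included 14 tested genes, 2 with a positive and 12 with a negative log2 fold change (background 52.0%) and a median of -0.28. None was called by edgeR, and 2 were lower at an unadjusted p under 0.05 (background 4.41%). These were Arhgef12, a guanine nucleotide exchange factor, at -0.80 (SE 0.34), and Prkg1, the cGMP-dependent kinase that relaxes smooth muscle, at -0.87 (SE 0.38). Without sham replicate 2 they had -0.44 and -0.53, and the median of the list was -0.24. In that fit 0 genes of the list were lower at an unadjusted edgeR p under 0.05 (background 2.01%). Ppp1r12b had a log2 fold change of 0.87 there (edgeR unadjusted p 0.0115, adjusted p 0.97). It had 0.41 with all libraries, and -0.23 from summed reads of all libraries.

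Regulators of the smooth muscle gene programme included 14 tested genes, 3 with a positive and 11 with a negative log2 fold change (background 52.0%) and a median of -0.21. None was called by edgeR, and 2, Klf4 and the Notch target Hey1, were lower at an unadjusted p under 0.05 (background 4.41%). Without sham replicate 2 the median was -0.08, 8 were negative (background 49.1%) and Klf4 was the 1 gene lower at an unadjusted p under 0.05 (background 2.01%). Srf itself had 26.5, 34.5 and 35.6 CPM in stimulated libraries and 29.6, 38.2 and 42.3 CPM in sham libraries, a log2 fold change of -0.19 (SE 0.25). The groups overlapped. The myocardin-related cofactors Mkl1 and Mkl2 had 0.42 (SE 0.31) and -0.49 (SE 0.33), and 0.25 and -0.09 without sham replicate 2. Hey1 had -1.22 (SE 0.46), and -0.56 without it. Klf4, a repressor of smooth muscle genes, had 112, 147 and 163 CPM in stimulated libraries and 231, 289 and 276 CPM in sham libraries. It was the 1 gene of the list with all stimulated libraries below all sham libraries (background 5.89%). Its log2 fold change was -0.91 (SE 0.26, edgeR adjusted p 0.541), and -0.84 without sham replicate 2. Klf4 is also expressed by endothelial cells and leukocytes, whose markers are given above.

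Calcium channels, calcium stores and vasoconstrictor receptors included 19 tested genes, 4 with a positive and 15 with a negative log2 fold change (background 52.0%) and a median of -0.33. None was called by edgeR, and 1, Ednra, was lower at an unadjusted p under 0.05, a share near the background of 4.41%. This endothelin receptor of smooth muscle had 3.24, 2.17 and 5.20 CPM in stimulated libraries and 4.23, 13.1 and 6.00 CPM in sham libraries, a log2 fold change of -1.12 (SE 0.49), with overlapping groups. Without sham replicate 2 it had -0.51, 0 genes of the list were lower at an unadjusted p under 0.05 (background 2.01%), and the median was -0.15. Ryr3, a calcium release channel, had 3.13 (SE 1.42) in the deposited table and -0.35 from summed reads. In the deposited table stimulated replicate 1 had 146 CPM where the other 5 libraries had 2.77 to 7.08 CPM.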

How the data were processed

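Total RNA of 6 libraries, 3 stimulated and 3 sham, was prepared with a stranded low-input kit, per the labels' protocols; sample titles give the group and the replicate number. Salmon 0.8.2, Trimmomatic 0.36, edgeR, R 3.5.1, bcl2fastq 2.17.1.14 and the build GRCm38 stand in the submitters' processing notes, without order or settings. The authors deposited a table of estimated counts per gene and, per the file headers, transcript tables of TPM, estimated counts, length and effective length. In the 14096 genes tested for it, the deposited gene counts were TPM multiplied by one factor for the gene and another for the library (constant within 1% in 100% of them), so they are not sums of reads, and transcript reads were also summed per gene.

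Estimated counts were rounded to whole numbers and filtered with filterByExpr (minimum count 10, minimum total 15). Stimulated and sham libraries were compared with the robust quasi-likelihood F test of edgeR 4.0.16 in R 4.3.3, with TMM scaling and Benjamini-Hochberg adjustment over all tested genes at 0.05; the SE is the size of the log2 fold change divided by the square root of F. Log2 CPM used a prior count of 2. Transcript usage was tested with limma 3.58.1 on transcripts with 10 reads in 3 libraries. Tests were tried on simulated counts. DESeq2 1.42.0, which gave no adjusted p to 6724 genes, limma voom, other filters and scalings, the replicate block and each library left out were alternatives. The summed reads without sham replicate 2, the gene lists without it and the CArG-like motif were added after seeing the data. An exact permutation of 3 against 3 cannot give a two-sided p below 0.1. The mice are separate animals by the stated group sizes, and p-values set the group difference against the spread between libraries of a group. Replicates differed well beyond sampling noise (chi-square per gene 31 to 114), so all 6 libraries were counted.

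The members and gene lists were chosen with earlier results of these data known. Named genes are all members, up to 4 per other list by p or by their role, and the 10 most alike in profile, of which 1 is not reported here. Promoters come from RefSeq (GRCm38.p6) and gene coordinates from GENCODE mouse M21 (GRCm38).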

Additional observations from a re-analysis of the deposited data

How the results depend on the processing

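No member was called under any of the 16 alternatives, with 9 members tested under a filter of 1 CPM in 3 libraries. The number of genes called among all tested was 0 in the deposited table and 227 with DESeq2, 109 with no filter, 3 with RLE size factors (Il1rn, Greb1l and Gm15927), 3 at a threshold of 0.1, and 1 with summed reads (Il1rn); with each library left out it was 0 to 1, the 1 being B430305J03Rik without stimulated replicate 3. The median log2 fold change of the members was -1.25 to -0.35 with each library left out, sham replicate 2 giving -0.35.

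Direction turned for 3 members, Cnn1 (-1.75 to 0.17 with each library left out), Des (-0.61 to 0.31) and Myocd (-0.80 to 0.32). Cnn1 had 0.13 from summed reads, 0.17 without sham replicate 2 and 0.57 with both. Des had 0.03 with no filter, 0.31 without stimulated replicate 1, 0.09 without stimulated replicate 2, 0.28 without sham replicate 2 and 0.08 from summed reads without it. Myocd had 0.32 without sham replicate 2. The other 7 members kept a negative sign under all alternatives run. The cause was not tested. For Cnn1, summed reads carry no length weighting, while the deposited values without sham replicate 2 still carry it.

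Same-numbered libraries had deviations correlated at 0.317, -0.161 and 0.128, and other pairs at -0.329 to 0.226. With 3 libraries per group these values cannot show whether same-numbered samples shared more than a number. With the replicate block, 0 genes and 0 members were called and the median was -0.86. Transcript usage called 1 gene (Setd5), 0 with the replicate block, 35 with transcripts of 5 reads in 1 library, and 0 to 2 with each library left out. The difference between members and pericyte markers was -0.12 to 0.18 with each library left out. Cnn1, with 12 to 29 summed reads per library, allows little precision.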
